A study of Oryctolagus cuniculus with 6 samples.

Results

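The genes S100A8, S100A9 and S100A12 encode the calgranulins, small calcium-binding proteins that neutrophils hold in large amounts in their cytosol. The 3 genes were taken by symbol from a table of 16367 rabbit genes, where each symbol has 1 row, and all 3 passed the filter on low counts, as did 12740 genes in all. They were chosen by their counts in these control and test libraries, so their levels in these groups are a description and carry no test. RNA was sequenced from 6 rabbit (Oryctolagus cuniculus) samples, 3 titled control and 3 titled test. The title of the series speaks of perichondral tissue, the connective sheath of cartilage, and the samples are labelled as subcutaneous tissue. Treatment of the test samples, strain, sex and age of the animals are not in the labels, nor is whether the samples came from separate animals. All 6 share the tissue label and the preparation, so p-values below measure only the spread between these samples, which may be technical.

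S100A8 and S100A9 pair into calprotectin, which binds calcium, zinc and manganese and withholds these metals from microbes. S100A12 forms dimers of its own. Outside the cell the calgranulins act as alarm signals through the receptor TLR4 and the receptor for advanced glycation end products, AGER. Neutrophils and monocytes make them at rest, some macrophages and endothelial cells make them in inflammation, and keratinocytes make S100A8 and S100A9 in wounded or inflamed skin. The mouse is known to lack an S100A12 gene, and the rabbit table has a row for each of the 3.

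Total counts were 21923246 to 23105606 in control libraries and 17820537 to 21199562 in test libraries. Connective tissue and cartilage transcripts were both present. The summed level of the 8 fibroblast genes in the table was 29317 to 41746 CPM (the count scaled to a common library size after normalization) in control libraries and 17505 to 20662 CPM in test libraries. That of the 12 chondrocyte genes was 3023 to 6930 CPM in control and 5655 to 7873 CPM in test libraries. The tested fibroblast genes numbered 8, of which 6 fell and 1 rose. Across all genes, edgeR's quasi-likelihood test passed 1655 of 12740 (13%) at an adjusted p under 0.05, with 6.84% higher and 6.15% lower in test. Each count of calls in a list below is to be read beside these shares. The share of all genes at an unadjusted p under 0.05 is not given here, so nothing is read from counts at that cut.

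S100A8 (ENSOCUG00000009566), the smaller chain of calprotectin, had 831, 1611 and 1135 counts in control replicates 1 to 3 and 4417, 4510 and 4673 counts in test replicates 1 to 3. On the scaled level this was 34.3, 73.9 and 50.4 CPM in control and 249.9, 226.9 and 224.7 CPM in test replicates. The lowest test library stood 3.04-fold above the highest control library, which was replicate 2. Group levels were 52.9 ± 19.9 and 233.8 ± 14 CPM (mean ± SD over n = 3 libraries, as in all later values with ±, unless a log2 value has a standard error). The fitted log2 fold change of test over control was 2.15 ± 0.23 (standard error), a 4.42-fold higher level in test.

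S100A9 (ENSOCUG00000008632), the larger chain of calprotectin, had 653, 1204 and 681 counts in control replicates and 3175, 2972 and 3385 counts in test replicates. Its levels were 27, 55.2 and 30.2 CPM in control and 179.7, 149.5 and 162.7 CPM in test replicates. As with S100A8, control replicate 2 was the highest of its group, and the lowest test library stood 2.71-fold above it. Group levels were 37.5 ± 15.5 and 164 ± 15.1 CPM, with a log2 fold change of 2.13 ± 0.24, or 4.38-fold.

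S100A12 (ENSOCUG00000022646), also called calgranulin C, had 59, 44 and 64 counts in control replicates and 380, 374 and 476 counts in test replicates. Its levels were 2.44, 2.02 and 2.84 CPM in control and 21.5, 18.8 and 22.9 CPM in test replicates. Control replicate 2, the highest of its group for S100A8 and S100A9, was the lowest for S100A12. The lowest test library stood 6.62-fold above the highest control library. Group levels were 2.43 ± 0.411 and 21.1 ± 2.07 CPM, with a log2 fold change of 3.11 ± 0.24, or 8.64-fold.

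**Figure D1:**
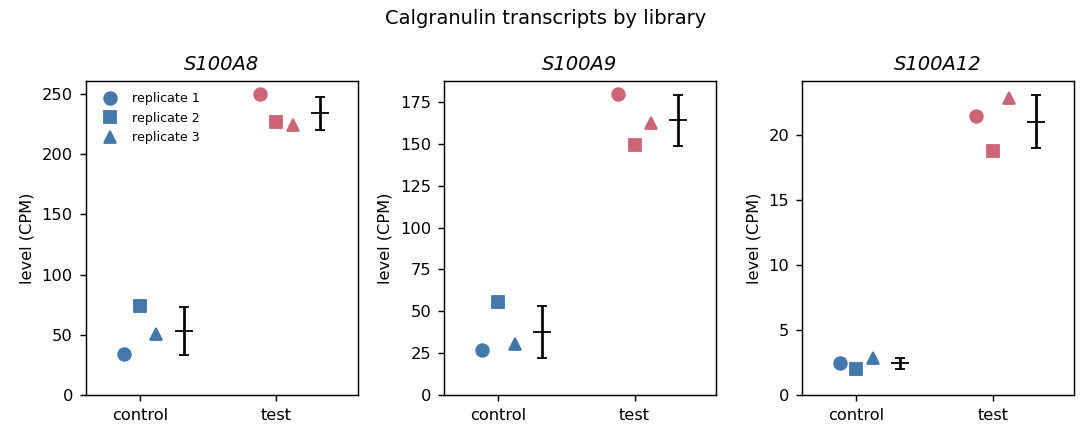
Level in CPM (vertical axes, from 0) of S100A8, S100A9 and S100A12 in each control and test library, with marker shapes for the replicate number and black bars for the group mean and SD. The 3 test libraries lie above the 3 control libraries for each gene, and control replicate 2 is highest for S100A8 and S100A9 and lowest for S100A12.

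For all 3 genes every test library was above every control library, a pattern that 18.4% of the 12740 tested genes share (35% with either direction). All 3 had a fitted fold of at least 4, as did 1.24% of tested genes. Since these counts chose the genes, nothing is read from either share. In the order of log2 fold changes from the highest, S100A12 stood at place 49, S100A8 at 128 and S100A9 at 135 of 12740. In the whole tissue, more cells of a type and more RNA per cell cannot be told apart.

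The spread within groups was unequal. Among control libraries the coefficient of variation was 37.6% for S100A8 and 41.2% for S100A9, against 5.99% and 9.22% among test libraries. For S100A12 it was 16.9% in control and 9.83% in test. The highest control library held 2.15 times the S100A8 level of the lowest and 2.05 times the S100A9 level. Across the 6 libraries, log2(CPM + 0.5) of S100A8 and S100A9 correlated at r = 0.99. After each group's mean was subtracted, r was 0.92 for that pair, -0.43 for S100A8 with S100A12 and -0.57 for S100A9 with S100A12. These values describe 6 libraries in 2 groups that share preparation and scaling, and they rest mostly on the order of the 3 control libraries.

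The make-up of the calgranulin counts differed between libraries. S100A12 took 3.82% of the counts of the 3 genes in control replicate 1 (exact 95% binomial interval 2.92% to 4.9%), 1.54% in control replicate 2 (1.12% to 2.06%) and 3.4% in control replicate 3 (2.63% to 4.33%). In test replicates 1 to 3 it took 4.77% (4.31% to 5.26%), 4.76% (4.3% to 5.25%) and 5.58% (5.1% to 6.09%). The group means were 2.92% ± 1.22 in control and 5.04% ± 0.47 in test, and all 3 test shares were above all 3 control shares. The intervals of control replicates 1 and 3 overlap those of test replicates 1 and 2, and the intervals cover counting error only. The share of S100A8 was 56.9% ± 3.29 in control and 55.9% ± 1.38 in test, and that of S100A9 was 40.2% ± 3.46 and 39.1% ± 1.11, so these shares overlapped between groups. S100A8 had 1.27 to 1.67 counts for each S100A9 count in control and 1.38 to 1.52 in test libraries. Counts are not scaled for transcript length, so these shares compare libraries and not the abundance of the genes. Together the 3 genes took 0.0069% to 0.0124% of all counts in control libraries and 0.0386% to 0.0447% in test libraries.

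**Figure D2:**
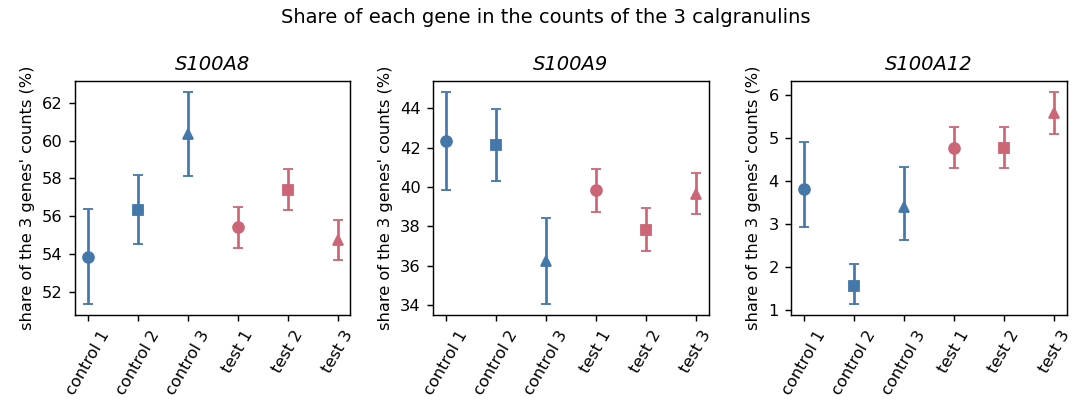
Share in % (vertical axes, not from 0) of S100A8, S100A9 and S100A12 in the summed counts of the 3 genes, by library, with exact 95% binomial intervals as bars. S100A12 takes 1.54% to 3.82% in control and 4.76% to 5.58% in test libraries, while the S100A8 and S100A9 shares overlap between groups.

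The rabbit RefSeq records place the 3 genes together, in the order S100A8, S100A12 and S100A9, with a noncoding RNA between S100A12 and S100A9. S100A12 stands in those records under a locus number and was matched by its gene number. Of the 15 records on each side of this run, 8 are in the table and 5 were tested. EdgeR, DESeq2 and limma-voom each called 0 of these 5, beside 13% of all tested genes by edgeR, so 0 says little for so few genes. At an unadjusted edgeR p under 0.05 there were 3, with no share of all genes to set beside it. The neighbours S100A1 and S100A13, themselves S100 genes, had log2 fold changes of 0.62 ± 0.28 and 0.35 ± 0.15 (edgeR adjusted p = 0.168 and 0.154), and SNAPIN, a vesicle fusion protein, had 0.58 ± 0.21 (0.0954). NPR1 and ILF2 had -0.42 ± 0.22 and 0.12 ± 0.12 (0.227 and 0.526). On the other side of the run the skin gene PRR9 had 1 to 6 counts in the 5 libraries that held any.

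Of 17 other S100 genes listed, 9 were in the table and 5 were tested, and 1 rose and 0 fell. The median log2 fold change of the 5, which is the value of S100A1, was 0.62, beside -0.004 for all tested genes. Under the alternatives that kept all libraries, S100A1 had 0.23 to 0.66. S100A4 (ENSOCUG00000008645), an S100 protein of fibroblasts and macrophages, rose 2-fold, from 88.7, 70.5 and 88.4 CPM in control replicates to 174.4, 157.8 and 162.8 CPM in test replicates (edgeR adjusted p = 0.0015). S100A4 and S100A13 had no matched genomic span, so they could not be corrected for the length trend described below. S100B, the S100 protein of glia and cartilage cells, was 43.1 ± 14.8 CPM in control and 44.1 ± 8.8 CPM in test (edgeR adjusted p = 0.95). S100A3 had few counts, at 0.289 ± 0.289 and 0.47 ± 0.214 CPM (edgeR adjusted p = 0.733).

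Of 9 tested calgranulin receptors and binding partners, 1 rose and 1 fell, with a median log2 fold change of 0.04. TLR4 was 130.9, 127.1 and 128.9 CPM in control and 136.3, 125.3 and 134.9 CPM in test replicates, so the levels overlapped, and the log2 fold change was 0.04 ± 0.10 (0.857 by edgeR). AGER was 11.1, 3.49 and 4.75 CPM in control and 9.56, 8.1 and 9.04 CPM in test replicates (edgeR adjusted p = 0.484). The control AGER values lie on both sides of the test values, and leaving out control replicate 1 gave a log2 fold change of 1.12 with an adjusted p of 0.0351. CD14, which hands ligands to TLR4, rose from 85.2 ± 24.9 to 161 ± 5.05 CPM (edgeR adjusted p = 0.0124). TLR2, a receptor for bacterial lipoproteins, fell from 105.3 ± 10.6 to 63.9 ± 1.98 CPM (edgeR adjusted p = 0.00509). NPTN, described as a receptor of S100A8 in human skin cells, was 72.1 ± 11.8 and 97.3 ± 5.98 CPM (0.0643), and CLEC7A, the beta-glucan receptor, was 50.6 ± 12.8 and 36.3 ± 6.36 CPM (0.153). The CD14 call ended on leaving out control replicate 3 or any test library (adjusted p 0.0536 to 0.0579) and after the length correction (0.0887, and 0.066 with the replicate block), while the TLR2 call held under all alternatives run. NPTN passed after the length correction (0.0178, and 0.0244 with the replicate block) and among genes with a span alone (0.0461). Without control replicate 2, NPTN and CLEC7A passed (0.00926 and 0.0192) and the list had 2 members higher and 2 lower.

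Of 7 tested genes of the signalling chain below these receptors, 1 rose and 1 fell, with a median log2 fold change of -0.25. IRAK1, a kinase that relays TLR signals, rose from 31.5 ± 8.03 to 55 ± 2.76 CPM (edgeR adjusted p = 0.0205). TNFAIP3, an inhibitor of NF-kappa B signalling, fell from 85.7 ± 12 to 57.1 ± 4.64 CPM (0.0226). NFKB1 and TRAF6 had log2 fold changes of -0.38 ± 0.13 and -0.52 ± 0.19 and did not pass (edgeR adjusted p = 0.0756 and 0.1). Both were lower in all 3 test libraries, and 35% of all tested genes had groups apart in either direction. The calls of IRAK1 and TNFAIP3 both ended on leaving out control replicate 3 or any test library (adjusted p 0.0642 to 0.0859 and 0.0678 to 0.117). That of IRAK1 also ended with the length correction and the replicate block together (0.053).

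The subunits of the NADPH oxidase, the enzyme that makes superoxide in phagocytes, gave 0 calls among 5 tested by edgeR and under each alternative run, DESeq2 and limma-voom included. Since edgeR called 13% of all tested genes, 0 of 5 is near that share and says little about the oxidase. At an unadjusted edgeR p under 0.05, 1 passed. CYBB, its catalytic subunit, was 87.9 ± 17.2 and 68.5 ± 14.5 CPM (edgeR adjusted p = 0.234). The small GTPases RAC1 and RAC2 had log2 fold changes of -0.19 ± 0.11 and -0.18 ± 0.27 (0.28 and 0.706).

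Of 19 listed genes of neutrophil granule proteins, 12 were in the table and 9 were tested, of which 5 rose and 0 fell, with a median log2 fold change of 1.28. LCN2, a siderophore-binding protein of the specific granules, was 2.77, 4.45 and 4.57 CPM in control and 15.4, 16.9 and 12.5 CPM in test replicates, a rise of 3.8-fold (edgeR adjusted p = 0.00288). MMP9, the gelatinase of the tertiary granules, rose 3.13-fold, from 46.3 ± 3.43 to 144.9 ± 23.6 CPM (0.000268). CHI3L1, a chitinase-like protein that chondrocytes and macrophages also make, rose 2.42-fold, from 7661 ± 2547 to 18555 ± 1905 CPM (0.00454). The calls of LCN2, MMP9 and CHI3L1 held under all alternatives run.

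PTX3, a soluble pattern receptor, rose from 80.7 ± 55.6 to 201.9 ± 34.8 CPM, and ARG1, arginase, from 379.6 ± 26.1 to 590 ± 181.8 CPM (edgeR adjusted p = 0.0493 and 0.0497). Control replicate 2 held 143.3 CPM of PTX3 against 37.1 and 61.7 CPM in the others, and without it the log2 fold change was 2.04 in place of 1.32. Both calls ended on leaving out control replicate 3 or any test library (adjusted p 0.0918 to 0.161 and 0.0612 to 0.149), with DESeq2 size factors (0.0502 and 0.0511) and after the length correction (0.167 and 0.156). That of ARG1 also ended without control replicate 1 (0.0512) and with the length correction and block together (0.161), and that of PTX3 with the DESeq2 Wald test (0.117). The list then had 3 calls in place of 5 with size factors, with the length correction, and on leaving out control replicate 3 or any test library. Among the granule genes not called, LYZ was 308.3 ± 74.4 CPM in control and 396.2 ± 52.6 CPM in test. PGLYRP1, named after its values were seen, was 22.1 ± 11.4 and 25.1 ± 3.41 CPM (edgeR adjusted p = 0.209 and 0.744). The rest of the list had few counts, and 4 of these genes are named here after their values were seen. LTF, lactoferrin, had 0 counts in all 6 libraries, and MPO, myeloperoxidase, had 10 counts in test replicate 1 and 0 in the other 5. BPI, a bactericidal protein, had 22, 0 and 20 counts in control and 59, 54 and 51 in test replicates (log2 fold change 2.22 ± 0.94, edgeR adjusted p = 0.147). CAMP, cathelicidin, was 1.01 ± 0.275 and 0.895 ± 0.551 CPM (0.904).

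Of 25 listed surface receptors and enzymes of neutrophils, 17 were in the table and 15 were tested, of which 0 rose and 2 fell, with a median log2 fold change of -0.24. ALOX5, which starts leukotriene synthesis, fell from 9.86 ± 4.16 to 3.77 ± 0.462 CPM (edgeR adjusted p = 0.035). LTB4R, the leukotriene B4 receptor, was 2.27 ± 1.3 and 0.731 ± 0.1 CPM, and C5AR1, the receptor of complement C5a, was 35.7 ± 11.7 and 57.2 ± 11.7 CPM (0.129 and 0.0859). The ALOX5 call ended with limma-voom (adjusted p = 0.0841) and on leaving out any library other than control replicate 2 (0.0574 to 0.131). C5AR1 passed without control replicate 1 (0.011), with the replicate block (0.0246) and with the DESeq2 Wald test (0.0384).

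Some receptors of the same list, named here after their values were seen, had few counts. CSF3R, the receptor for granulocyte colony-stimulating factor, was 4.09, 3.3 and 2.93 CPM in control and 4.87, 7.55 and 5.82 CPM in test replicates. Its test libraries were all above its control libraries, as for 18.4% of all tested genes. The CSF3R log2 fold change of 0.82 ± 0.34 did not pass (edgeR adjusted p = 0.143). CXCR1, an interleukin-8 receptor, was 2.81, 0.78 and 3.06 CPM in control and 4.98, 5.08 and 2.21 CPM in test replicates (0.346). CXCR2, the other interleukin-8 receptor, was 3.22, 0.0459 and 1.78 CPM in control and 2.15, 0.604 and 0.913 CPM in test replicates (0.805). Control replicate 2, with the highest S100A8 and S100A9 of its group, was the lowest of all 6 libraries for both CXCR1 and CXCR2. FPR1, a formyl peptide receptor, was 6.31 ± 2.82 and 9.5 ± 1.81 CPM (0.316). FPR2, the other formyl peptide receptor listed, was 4.94 ± 1.05 and 3.95 ± 0.881 CPM (0.597).

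**Figure D3:**
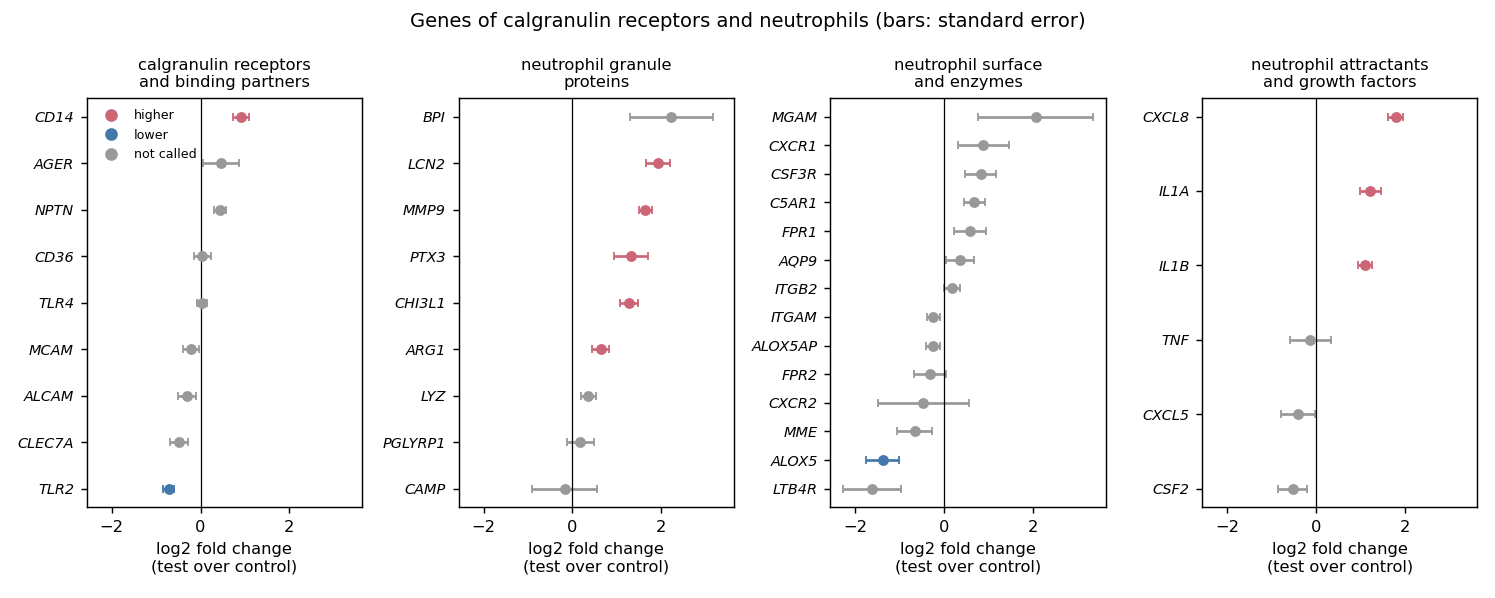
Log2 fold change of test over control (horizontal axes) with its standard error for the tested genes of 4 lists (1 of the 15 surface genes is not drawn), coloured by edgeR's call at an adjusted p under 0.05. The granule and attractant lists have 5 and 3 genes called higher and 0 called lower, the surface genes drawn have 0 higher and 1 lower, and TLR4 lies at 0.04.

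Neutrophil attractants and growth factors had 3 of 6 tested members higher and 0 lower, with a median log2 fold change of 0.49. CXCL8, interleukin-8, was 52.3, 72.9 and 50.2 CPM in control and 199.7, 185.6 and 221.1 CPM in test replicates, a rise of 3.46-fold (edgeR adjusted p = 0.000293). Control replicate 2 was again the highest of its group. IL1B rose from 27.4 ± 4.76 to 58.9 ± 3.89 CPM and IL1A from 16.5 ± 4.68 to 38.5 ± 8.46 CPM (0.00277 and 0.0107). CSF2, the growth factor of granulocytes and macrophages, was 11.1 ± 2.78 and 7.72 ± 3.04 CPM (0.32). CXCL8 and IL1B passed under all alternatives run, and IL1A under all except without test replicate 3 (adjusted p = 0.0611).

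Of 8 tested transcription factors that act on myeloid or calgranulin genes, 1 rose and 1 fell, with a median log2 fold change of 0.01. FOS, an early response factor, rose from 1411 ± 141.5 to 2446 ± 269.2 CPM (edgeR adjusted p = 0.00418), a call that ended after the length correction (0.0961), also with the replicate block (0.106). CEBPE, the factor that drives late granule genes in maturing neutrophils, fell from 4.25 ± 0.923 to 0.99 ± 0.757 CPM (0.0485). The CEBPE call ended without control replicate 1 (adjusted p = 0.06), control replicate 3 (0.142), test replicate 1 (0.151) or test replicate 2 (0.132), and among genes with a span alone (0.0521). Without test replicate 3 its log2 fold change was -2.89 in place of -2.09. CEBPB, the factor of monocytes and emergency granulopoiesis, was 14.1 ± 3.5 and 19.8 ± 5.21 CPM (0.233). HIF1A was 767.3, 1578 and 1013 CPM in control and 1416, 1395 and 1460 CPM in test replicates (0.316), and without control replicate 2 it passed (log2 fold change 0.68, adjusted p = 0.00588).

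Among genes of metal handling, the known function of calprotectin, 4 of 6 tested members rose and 1 fell, with a median log2 fold change of 1.05. SLC11A1, a divalent metal transporter of phagocyte vesicles, was 0.744, 0.505 and 1.51 CPM in control and 15.2, 10.3 and 9.76 CPM in test replicates, a rise of 12.7-fold (edgeR adjusted p = 0.00108). FTL, the ferritin light chain, rose from 1489 ± 415.9 to 3314 ± 359.1 CPM (0.00466), although reads can be shared between ferritin copies. The FTL log2 fold change was 1.15, and 0.62 to 1.19 under the alternatives that kept all libraries. SLC39A10, a zinc importer, fell from 35.5 ± 5.72 to 16.5 ± 1.61 CPM (0.00485). LCN2, given above, belongs to this list as well, and LTF and HAMP had 0 counts in all libraries.

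**Figure D4:**
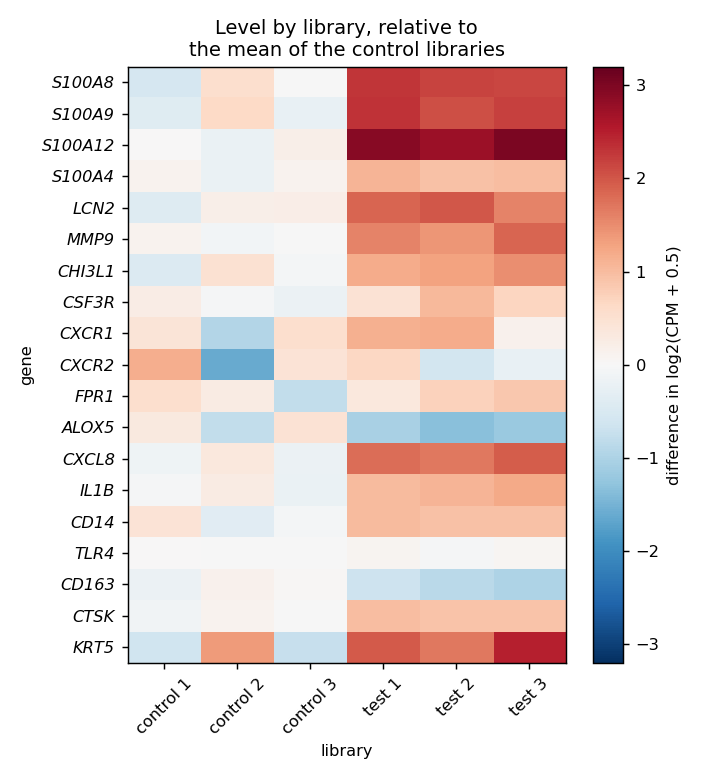
Level of 19 genes (rows) in the 6 libraries (columns) as the difference in log2(CPM + 0.5) from the mean of the control libraries, red above and blue below. The calgranulins, LCN2, MMP9 and CXCL8 are red in all 3 test libraries, ALOX5 is blue in all 3, and CXCR2 is mixed.

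Of the other cells known to make calgranulins, 14 monocyte and macrophage genes were in the table, with a summed level of 3502 to 3760 CPM in control and 3318 to 3661 CPM in test libraries. Of 13 tested, 3 rose and 1 fell, with a median log2 fold change of 0.24. The 3 that rose were CD14, given above, and CD68 and ITGAX, named after their values were seen. CD68, a lysosomal protein of macrophages, rose from 122.2 ± 33.8 to 252.1 ± 37.1 CPM, and ITGAX, the integrin chain CD11c, from 51.5 ± 8.93 to 100.2 ± 8.98 CPM (0.00876 and 0.00378 by edgeR, adjusted). The ITGAX call held under all alternatives run, and that of CD68 under all except without test replicate 2 (adjusted p = 0.0541). The CD68 log2 fold change was 1.04, and 0.62 to 1.07 under the alternatives that kept all libraries. The macrophage scavenger receptor CD163 was the gene that fell, with 1287 ± 140.2 CPM in control and 720.4 ± 85 CPM in test (0.00382 by edgeR). Without CD163, the most abundant gene of the list, the other 13 summed to 2299 to 2368 CPM in control and 2672 to 2957 CPM in test libraries. VCAN and LYZ had log2 fold changes of 0.22 ± 0.13 and 0.36 ± 0.18 (0.312 and 0.209). The 9 keratinocyte genes in the table summed to 10.2 to 11.2 CPM in control and 9.62 to 12.8 CPM in test libraries. Without KRT17, the most abundant, the other 8 summed to 6.07 to 8.03 CPM in control and 8.08 to 11.1 CPM in test. Of the 6 tested, edgeR and limma-voom each called 0 and DESeq2 called 1, with 2 at an unadjusted edgeR p under 0.05. KRT1, the keratin of the upper epidermis, had 0 counts in all control libraries and 0, 1 and 4 in test replicates 1 to 3. KRT5, the basal keratin, had 0.0826, 1.83 and 0.0444 CPM in control and 3, 2.41 and 4.57 CPM in test replicates (0.168). Its highest control library was replicate 2, as for S100A8 and S100A9, and without that library its log2 fold change was 5.58 in place of 2.35 (adjusted p = 0.00283). KRT17 and KRT10 were 3.81 ± 1.41 and 1.78 ± 1.33 CPM in control and 1.4 ± 0.392 and 2.88 ± 0.839 CPM in test (0.0904 and 0.547), and KRT17 passed without control replicate 2 (0.0424) and with the DESeq2 Wald test (0.049). The other tested genes of this list, TP63, KRT16 and PKP1, had log2 fold changes of -1.7 ± 0.82, -1.07 ± 0.8 and 0.48 ± 0.86 (0.199, 0.417 and 0.752 by edgeR, adjusted). The median of the 6 tested was -0.29. Reads can be shared among keratins.

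Other tissue components moved with the groups too. Of 10 skeletal muscle genes, all tested, 9 rose and 0 fell, with a median log2 fold change of 4.72. These 9 summed to 4.87 to 8.85 CPM in control and 73.2 to 92.9 CPM in test libraries. The uncalled gene, MYBPC1, a myosin-binding protein named after its values were seen, was 87.7 to 112.1 CPM in control and 86.8 to 94.4 CPM in test libraries, and with it the list summed to 92.6 to 119.2 and 160 to 183.1 CPM. Of 8 tested B and plasma cell genes 4 fell, with sums of 689 to 1477 CPM in control and 294.9 to 419.9 CPM in test libraries. Without the most abundant gene of that list, the other 8 summed to 231.1 to 298.6 CPM in control and 185.1 to 197.3 CPM in test. The collagens COL1A1, COL1A2 and COL3A1 fell, at 1.71, 1.9 and 2.02 times lower levels in test (adjusted p by edgeR 0.0177, 0.00519 and 0.00277). The COL1A1 call ended on leaving out control replicate 3 or any test library (adjusted p 0.0567 to 0.0898). Of red cell, platelet, T and NK cell genes, edgeR, DESeq2 and limma-voom each called 0 of 1, 0 of 1 and 0 of 4 tested, and at an unadjusted edgeR p under 0.05 the counts were 0, 0 and 1. Of eosinophil and mast cell genes and of adipocyte genes, 1 of 4 tested fell in each and 0 rose, and of 12 chondrocyte genes 1 rose and 0 fell. The part of these components in the calgranulin levels was not tested.

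The genes whose level over the 6 libraries most resembled the mean log2 level of the 3 calgranulins were sought among 9050 tested genes with a symbol and a mean of at least 1 CPM. Pearson's r was highest for CTSK, CTSV, TXN, PDLIM4 and SPSB1 (0.9996, 0.998, 0.997, 0.996 and 0.995). CTSK, the cathepsin of osteoclasts and giant cells, was 3072, 3595 and 3287 CPM in control and 6556, 6179 and 6269 CPM in test replicates. Like S100A8, it was lowest in control replicate 1 and highest in control replicate 2 among controls. CTSV, a lysosomal protease, was 1262 ± 152.6 and 2816 ± 83.6 CPM, and TXN, the redox protein thioredoxin, was 159.3 ± 8.9 and 347.1 ± 12.6 CPM. PDLIM4 was 2.65 ± 0.358 and 8.97 ± 0.478 CPM, and SPSB1 was 7.32 ± 1.09 and 20.2 ± 0.456 CPM. These r values carry no p, since the genes were picked for them over 6 libraries that fall into 2 groups. After each group's mean was subtracted, the highest r were those of HEATR5A, PICALM, CAPRIN1, NHS and ANXA8 (0.995 to 0.997). ANXA8, an annexin, was 73, 138.2 and 100.1 CPM in control and 151.4, 115.9 and 134.8 CPM in test replicates, and its groups overlapped.

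Among the alternatives run, a correction for gene length moved the fold changes of the calgranulins most. Their genomic spans are short, at 1317 bases for S100A8, 2159 for S100A9 and 2076 for S100A12, beside a median of 36190 over the tested genes with a span. At these spans the libraries' trend with span was 0.59, 0.50 and 0.51 higher in test than in control on the log2 scale. With that trend removed, the log2 fold changes were 1.53 ± 0.29 for S100A8, 1.6 ± 0.29 for S100A9 and 2.64 ± 0.23 for S100A12, or 2.89-fold, 3.04-fold and 6.24-fold. Leaving out each library in turn gave 1.92 to 2.47 for S100A8, 1.95 to 2.52 for S100A9 and 3.00 to 3.24 for S100A12.

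**Figure D5:**
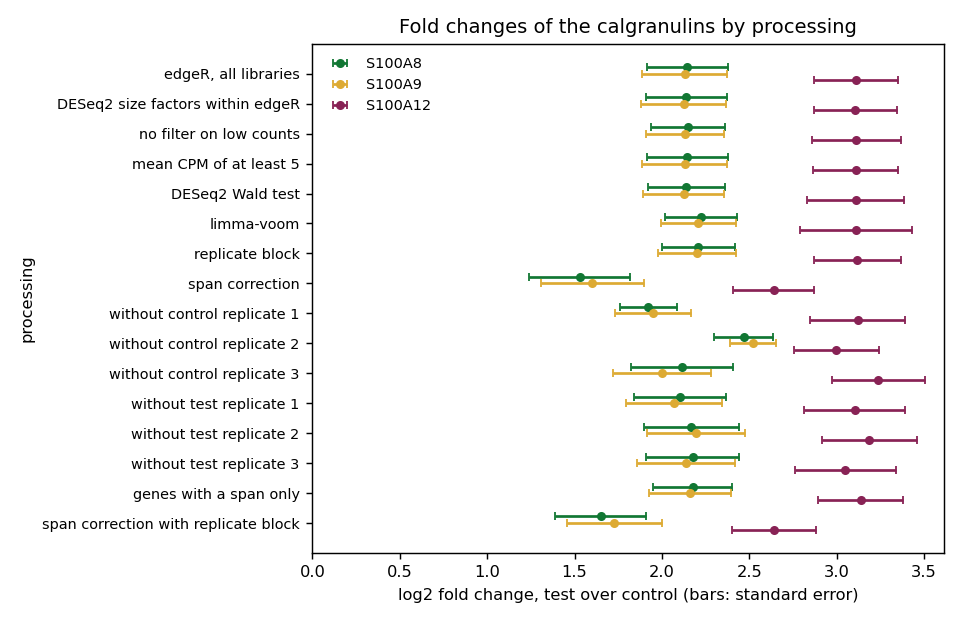
Log2 fold change of test over control (horizontal axis, from 0) with its standard error for S100A8, S100A9 and S100A12 under each processing (rows). All values are above 0, the span correction gives the lowest (1.53, 1.6 and 2.64), and S100A12 lies above S100A8 and S100A9 in every row.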

How the data were processed

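Raw gene counts of 6 samples were deposited as whole numbers, per the file headers. Its other 6 per-sample columns, normalized by the authors, were not used. Cutadapt 1.9.3, HISAT2 and Cuffdiff are listed, with no role, in the submitters' processing notes, which also list a rat build. The genes carry Ensembl identifiers of the rabbit. The counting tool and its strand setting are not given in the sources used here. Per the labels, ribosomal RNA was removed and libraries were stranded. Symbols came from the table, where 5067 genes have none.

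Counts were tested with edgeR 4.0.16 in R 4.3.3 (quasi-likelihood, two-sided, TMM, filterByExpr with minimum counts of 10 per library and 15 in all), with Benjamini-Hochberg adjustment over 12740 genes and calls at 0.05. Standard errors are the log2 fold change over the square root of F. CPM use normalized library sizes. Samples were grouped by title. Libraries of a group differed by more than sampling noise. Depth was 17820537 to 23105606 counts, and intervals cover counting error only, since reads carry no molecular identifiers.

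The members and lists were chosen with earlier results of these data known. Named genes are the members, the tested S100 genes, up to 4 genes of smallest p per pathway list, up to 3 most abundant per marker list and the genes most alike in pattern. A few genes the rule names are not reported here, but stay in the counts. There were 9 pathway and 11 marker lists. Of the marker lists, genes are named for monocytes, keratinocytes and fibroblasts, and MYBPC1 for skeletal muscle.

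Alternatives were DESeq2 1.42.0 (size factors and Wald test), limma-voom 3.58.1, other filters (none, mean of at least 5 CPM), the replicate block, leaving out each library, and a length correction. The last removed from each library a lowess curve (fraction 0.5) of log2(CPM + 0.5) deviations against RefSeq gene span, over the 8880 tested genes with a span. The span restriction alone, and the correction with the block, were added after the data were seen. The tests were checked on simulated counts. Figures used Python 3.11.15 and matplotlib 3.10.9.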

Additional observations from a re-analysis of the deposited data

How the results depend on the processing

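The 3 calgranulins kept their direction under all 15 alternatives run. All their test libraries lay above all their control libraries, so leaving out a library could hardly reverse it, and nothing is read from that. Length was the choice that moved them most: the correction gave log2 fold changes of 1.53, 1.6 and 2.64 for S100A8, S100A9 and S100A12, and 1.65, 1.73 and 2.64 with the replicate block, in place of 2.15, 2.13 and 3.11. Without any single library they were 1.92 to 2.47, 1.95 to 2.52 and 3.00 to 3.24. The number of genes called was 1655, with 1200 among genes with a span alone, 888 after the length correction in those genes, 927 with correction and block, and 446 to 2163 without any single library. Of 69 tested genes of the pathway lists 21 were called, and 13 to 25 without any single library. With the replicate block alone 1681 genes and 22 pathway genes were called, and the calgranulins had 2.21, 2.20 and 3.12. Deviations of same-numbered libraries correlated at 0.116, -0.0186 and 0.0246, and control replicate 2 correlated best with test replicate 3 (0.103). Correlations this small cannot tell whether the numbers pair the samples, and the labels state no pairing.

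Of 859 values of 59 other named genes under the alternatives, 782 kept direction and call, 49 lost and 13 gained a call, and 15 changed sign, all of genes that were not called. S100B turned to -0.22 after the correction, -0.16 with the block too, -0.22 without control replicate 1, and -0.05 on leaving out test replicate 2 or 3, in a range of -0.22 to 0.20 over libraries left out. CXCR2 turned to 0.44 with limma-voom, 0.15 with the block and 0.42 without control replicate 1 (range -1.14 to 0.42). CAMP turned to 0.07 without control replicate 2 and 0.17 without test replicate 2 (range -0.76 to 0.17), and RAC2 to 0.23 without control replicate 1 (range -0.44 to 0.23). After the correction CEBPB had -0.031 and -0.024 with the block, and TLR4 -0.10 in both. The cause of these changes was not tested. S100A4, S100A13, AGER, LYZ and CTSV, with no matched span, could not be fitted with the length correction. CXCR1, CXCR2, CAMP and BPI were under 6 CPM in every library, and whether depth limited their calls was not tested.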

Other observations

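A few genes of neutrophils and their cytokines had too few counts to be tested, and were picked out after their counts were seen. G0S2, a gene of granulocytes and fat, had 0 counts in all control libraries and 8, 1 and 2 in test replicates 1 to 3. PROK2, a chemokine-like peptide of neutrophils, had 1 count in control replicate 3 and 0 in the other controls, and 1, 11 and 6 in test replicates. IL36G, an epithelial cytokine of the interleukin-1 family, had 1, 0 and 0 counts in control and 10, 1 and 10 in test replicates. CSF3, granulocyte colony-stimulating factor, had 0, 0 and 4 against 9, 1 and 7 counts. TCN1, a vitamin B12 carrier of the specific granules, had 3, 0 and 0 against 1, 5 and 22 counts, most of them in test replicate 3. IL17A ran the other way in sum, with 1, 0 and 42 counts in control and 10, 2 and 6 in test replicates, where control replicate 3 alone held 42 of 43 control counts.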
